A study of Mus musculus with 3 samples.

Results

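The Hox genes of the 4 mammalian clusters were followed on 3 Affymetrix arrays of R1 cells, a mouse line of embryonic stem cells in established use, kept undifferentiated. Members were the probe sets whose only gene symbol in the platform annotation was that of a Hox gene, from Hoxa, Hoxb, Hoxc or Hoxd and a number. The rule found 48 probe sets of 33 genes among 45101 probe sets in all. Hoxa held 16 probe sets of 9 genes, Hoxb 11 of 9, Hoxc 11 of 7 and Hoxd 10 of 8. The counts and medians given for Hox genes are over these members alone, apart from those of promoter windows. One array measured untreated R1 cells, for which the labels gave no time, one measured R1 cells given BMP4 at 20 ng/ml for 4 h, and one measured R1 cells given noggin at 100 ng/ml for 4 h. The 3 arrays share the cell line and its undifferentiated state, and the labels used here name no feeder layer or culture medium. Since each condition is 1 array, no value has a replicate error and no test was made. Values are log2 RMA expression values, so a difference of 1 is a 2-fold difference, and the number of arrays limits the precision.

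Hox genes encode homeodomain transcription factors that give body segments their identity along the axis from head to tail. Their order in each cluster follows the order in which they are expressed, with low paralogue numbers at the hindbrain end and high numbers toward the tail and the tips of the limbs. In embryonic stem cells the clusters are known as classic targets of Polycomb repressive complexes and carry both activating and repressive histone marks. BMP4, a bone morphogenetic protein, signals to the nucleus through SMAD proteins. Noggin is released from cells and captures BMPs before they reach a receptor.

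The treatments and the cell type were read on genes outside the clusters first. Id1, Id2 and Id3, direct SMAD targets that encode inhibitors of basic helix-loop-helix factors, were higher with BMP4 by 2.76, 4.10 and 3.58, and their noggin differences were −0.19, −0.49 and −0.26. Id4 was higher with BMP4 by 0.84, Smad6, an inhibitory SMAD, by 0.67, and Gata2 by 0.99. Of the 11 BMP-SMAD targets listed, 6 were lower with noggin, 3 were equal, and Smad7 and Msx2 were higher, by 0.16 and 0.06. Their median noggin difference was −0.0094, and none passed 1.5-fold with noggin. Pou5f1 measured 11.31 untreated, 11.53 with BMP4 and 11.31 with noggin, Sox2 11.16, 11.16 and 11.12, and Nanog 11.00, 11.15 and 10.95. The 12 stem cell markers were all above the floor, which was set at 3.44, the median of all values in the table. This floor is a convention, since no detection calls were known. Lying above or below it is not a call of a gene as expressed or silent. Of all genes, 63.7% had a probe set above the floor on at least 1 array, and the list counts stand against that share. Fibroblast markers, listed because fibroblasts express many Hox genes, were above the floor on at least 1 array for 9 of 16 genes. Above it were Sparc, which is also in the primitive endoderm list, at 9.37 untreated, Fstl1 at 5.50, Col5a1 at 5.32, S100a4 at 4.93, Thy1 at 4.91, Pdgfrb at 4.50, Col1a2 at 4.18, Dcn at 3.75, and Postn on the noggin array alone, at 3.55. Below it on every array were Col1a1, Col3a1, Lum, Prrx1, Twist2, Tcf21 and Fap. Sums of these lists are of log2 values over all matched genes, also those below the floor. The summed level of the fibroblast list was 62.9 untreated, 61.2 with BMP4 and 62.7 with noggin. Mesoderm markers above the floor numbered 7 of 10, with sums of 36.5, 37.4 and 35.7, neural markers 5 of 11, with sums of 40.5, 40.7 and 39.2, and primitive endoderm markers 7 of 9, with sums of 46.8, 48.1 and 47.1. Of these lists, members past 1.5-fold were Sox7, of primitive endoderm, higher with BMP4 by 0.99 than untreated and by 0.89 than with noggin, Mesp2, of mesoderm, higher with BMP4 than with noggin by 0.69, and Neurog3, of the neural list, by 0.93. Their part in the Hox values was not tested. In such bulk RNA a gene active in few cells and a gene weakly active in all cells cannot be told apart.

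Most Hox probe sets lay below the floor. On at least 1 array 10 of the 48 were above it, 20.8% against 50.6% of all probe sets, and the same 10 were above it on all 3 arrays. They belonged to 10 genes, 30.3% of the 33, whereas 63.7% of all genes had a probe set above the floor. Hoxc contributed 4 of its 7 genes, Hoxa 3 of 9, Hoxb 2 of 9 and Hoxd 1 of 8. The other 38 probe sets ran from 1.74 to 3.28 on the untreated array with a median of 2.27, from 1.73 to 3.26 with a median of 2.27 on the BMP4 array, and from 1.53 to 3.44 with a median of 2.14 on the noggin array. The 3.44 belonged to a Hoxa3 probe set and equalled the floor. Below the floor on every array were, among others, Hoxa2, which patterns the second pharyngeal arch, Hoxb1, a gene of the hindbrain, Hoxa10 and Hoxa11, genes of the uterus and forearm, and Hoxa13 and Hoxd13, genes of the digits.

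**Figure D1:**
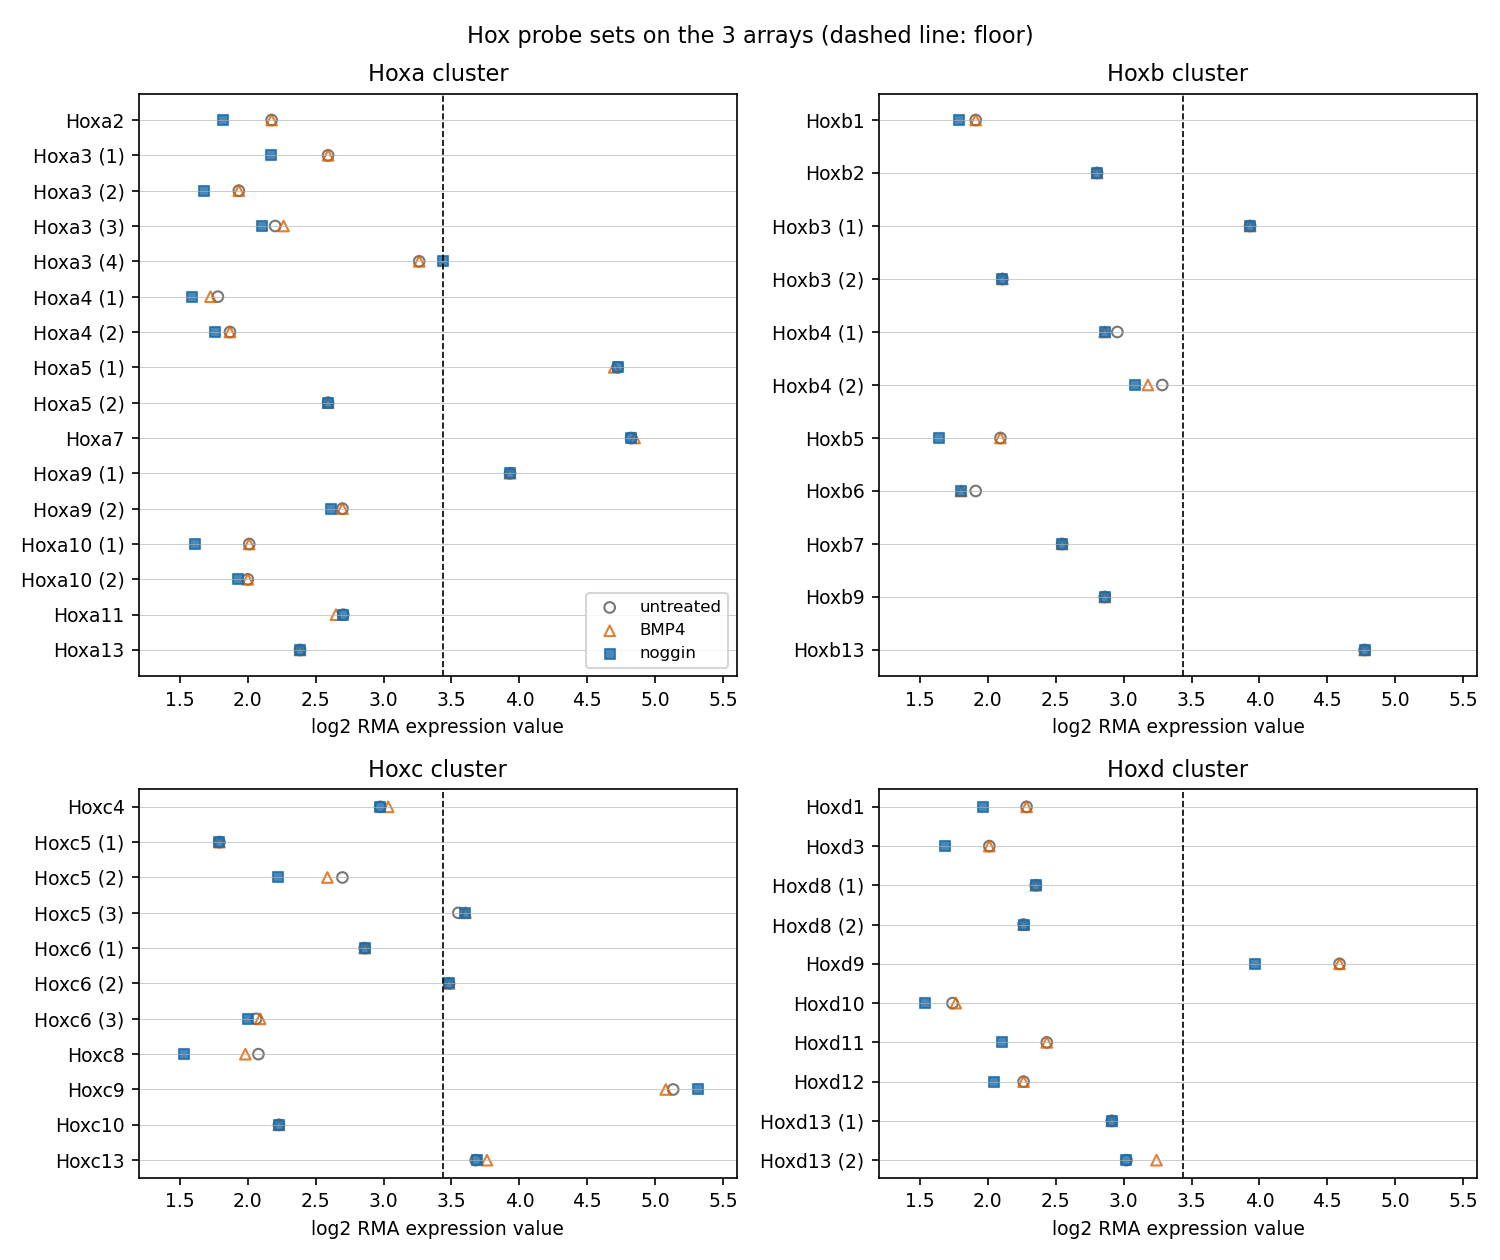
Log2 RMA expression value (x axis) of each of the 48 Hox probe sets (rows, numbered where a gene has several) on the untreated array (circles), the BMP4 array (triangles) and the noggin array (squares), 1 array each. The dashed line is the floor of 3.44, and 10 probe sets lie to its right on all 3 arrays, of which Hoxd9 has the noggin value farthest from the others, at 3.97 against 4.59.

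The genes above the floor were spread along the clusters. At paralogue positions 9 to 13, toward the tail, they were 5 of 14 genes, Hoxa9, Hoxb13, Hoxc9, Hoxc13 and Hoxd9. In the central positions 5 to 8 they were 4 of 9, Hoxa5, Hoxa7, Hoxc5 and Hoxc6, and at positions 1 to 4 Hoxb3 was the 1 of 10. Hoxc9, a gene of thoracic motor neurons, measured 5.13 untreated, 5.08 with BMP4 and 5.31 with noggin. Hoxa7 measured 4.82, 4.85 and 4.82 on the same arrays. Hoxb13, a gene of the tail bud and prostate, measured 4.77 on each. These 3 genes were above the floor on every array, and none of their differences reached 0.25.

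The Hoxa5 probe set above the floor measured 4.72, 4.70 and 4.72 on the untreated, BMP4 and noggin arrays. Hoxc13, a gene of hair and nails, measured 3.68, 3.76 and 3.69. Hoxc5 measured 3.55, 3.60 and 3.60. Hoxa9, a gene of blood progenitors, and Hoxb3 each measured 3.93 on all 3 arrays, and Hoxc6 measured 3.48 on all 3, just above the floor. The probe sets of Hoxa5 and Hoxc6 above the floor carry the suffix that the array maker gives to probe sets with probes that may bind other transcripts. For Hoxa5, Hoxa9, Hoxb3, Hoxc5 and Hoxc6, the remaining probe sets of the gene were below the floor, so that 5 of the 10 genes had probe sets on either side of it. In the other 5, Hoxa7, Hoxb13, Hoxc9, Hoxc13 and Hoxd9, 1 probe set stood for the gene.

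With BMP4 for 4 h no Hox probe set differed from the untreated array by 0.32 or more, the lower of the size limits used, where 1.59% of all probe sets were higher and 1.01% lower by that much. With 48 members, of which 38 lay at or below the floor, a count of 0 is near those shares. At 1.5-fold, a difference of 0.58, the counts were again 0 in both directions, against 0.284% higher and 0.0843% lower among all probe sets. Of the 38 probe sets behind the 0.0843%, 14 read poly-A spike transcripts, which are added to the RNA and are not mouse genes. By any amount, 8 of the 48 were higher and 9 were lower, against 26.1% and 26.5% of all probe sets, and 31, or 64.6%, had exactly the same value to 6 decimals on both arrays, against 47.4% of all. Among probe sets whose mean was at or below the floor, 68.4% of the 38 Hox probe sets and 54.8% of all 22636 were exactly equal. The median difference was 0.00 over the Hox probe sets and 0.00 over all probe sets. The largest difference was that of a Hoxd13 probe set, which measured 3.02 untreated, 3.24 with BMP4 and 3.02 with noggin, below the floor on each. The second Hoxd13 probe set measured 2.91 on all 3 arrays. The lowest difference was −0.11, in a Hoxc5 probe set that measured 2.70 untreated and 2.59 with BMP4.

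On the noggin array many Hox probe sets were lower than on the untreated array, and most probe sets of low level were lower as well. Of the 48 Hox probe sets, 25 were lower by some amount, 4 higher and 19 exactly equal. Of all probe sets, 48.3% were lower, 16.2% higher and 35.5% exactly equal. The median difference was −0.0014 over the Hox probe sets and 0.00 over all. Among those with a mean at or below the floor, 23 of 38 Hox probe sets were lower, 60.5%, and 1 was higher, against 59.2% and 7.1% of all probe sets of low mean. Those shares are close to each other. The balance turned with a loess correction of the differences for mean level, which also turns exact ties into small differences: 31.2% of the Hox probe sets were then lower and 68.8% higher, against 34.7% and 65.3% of all. The noggin array as a whole had lower values at its bottom end, with a 5th percentile of 1.60 against 1.82 on the untreated and the BMP4 array. Probe sets with an untreated value from 1.5 to 2 had a median difference of −0.16 with noggin, those from 2 to 2.5 of −0.07, and those from 2.5 upward to 7 of 0.00. The poly-A spike transcripts, which are added to the RNA before labelling, were lower with noggin for 23 of 24 probe sets, by a median of −0.18, and with BMP4 for 24 of 24, by a median of −0.63. The part of this bottom end in the Hox differences was not tested beyond the correction for level given with the single probe sets.

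**Figure D2:**
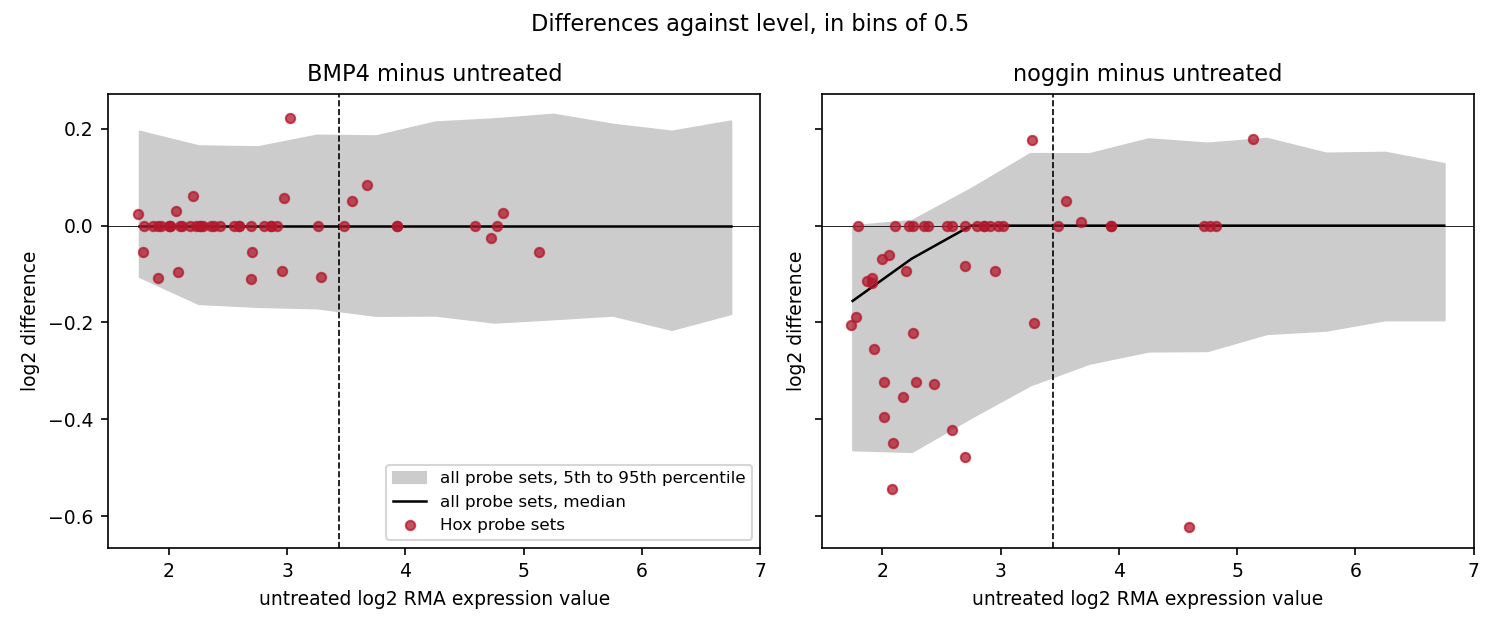
Log2 difference from the untreated array (y axis) against the untreated log2 RMA value (x axis) for the 48 Hox probe sets (points), with BMP4 on the left and noggin on the right; the line and the band are the median and the 5th to 95th percentile of all probe sets in bins of 0.5, and the dashed line is the floor. On the right the median turns down below a level of 2.5, and the lower edge of the band falls from higher levels on. Neither does so on the left. Most low Hox points lie inside the band, and Hoxd9 at −0.62 lies far under it.

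At the limit of 0.32, 10 Hox probe sets were lower with noggin and none was higher, against 7.51% and 0.344% of all probe sets. Of these, 9 had a mean at or below the floor, 9 of 38 where 13.4% of all probe sets of low mean were that much lower. The remaining one was Hoxd9, 1 of the 10 Hox probe sets of higher mean, where 1.56% of all probe sets were lower by at least 0.32 and 0.134% by 1.5-fold. At 1.5-fold Hoxd9 was the only Hox probe set lower, with none higher, against 0.698% and 0.00887% of all probe sets.

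The low members past 0.32 came from all 4 clusters. Hoxc8, a gene of the lower neck and upper trunk, measured 2.08 untreated, 1.98 with BMP4 and 1.53 with noggin, a difference of −0.54 with noggin. A Hoxc5 probe set measured 2.70, 2.59 and 2.22, lower with noggin by 0.48. Hoxb5 measured 2.09 on the untreated and BMP4 arrays and 1.64 with noggin, and of 8463 other probe sets with a mean within 0.25 of its own, 7.3% had a noggin difference as low or lower. The corresponding share was 3.21% for Hoxc8 and 1.94% for that Hoxc5 probe set. In all 3 the noggin array was the lowest, and every value was below the floor.

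A Hoxa3 probe set, for a gene that patterns the thymus and parathyroid, measured 2.59 on the untreated and BMP4 arrays and 2.17 with noggin. A Hoxa10 probe set measured 2.01, 2.01 and 1.62. Hoxa2 measured 2.18, 2.18 and 1.82. In the Hoxd cluster, Hoxd11, a gene of the forearm, measured 2.43, 2.43 and 2.11. Hoxd3 measured 2.01, 2.01 and 1.69, and Hoxd1 measured 2.29, 2.29 and 1.96. In these 6 the untreated and BMP4 values were equal, and between 3.78% (Hoxa3) and 20.1% (Hoxd3) of probe sets of like mean had noggin differences as low or lower. Hoxd1 and Hoxd3 had the same difference, −0.323141, to 6 decimals. After the loess correction, the differences of the 9 low members lay between −0.39 (Hoxc5) and −0.14 (Hoxd3).

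Hoxd9, a gene of the lumbar trunk and hindlimb, measured 4.59 untreated, 4.59 with BMP4 and 3.97 with noggin. The noggin value was lower than both others and still above the floor. The difference of −0.62 was a 1.54-fold lower value. Of 2183 other probe sets with a mean within 0.25 of that of Hoxd9, 0.0916% had a difference as low or lower, and their median difference was 0.00. Hoxd9 had the lowest of the 48 noggin differences. Like the low members above, it was picked for the size of this difference, so the shares are ranks and not tests. With the loess correction the difference was −0.61, and with a pseudocount of 16 added on the linear scale it was −0.34, a 1.27-fold lower value that no longer passed 1.5-fold. Hoxd9 was measured by 1 probe set, so no second probe set of the gene bears on the value. Its neighbours in the cluster were below the floor on every array. Hoxd8 had 2 probe sets with a difference of 0.00 each, and Hoxd10 measured 1.74 untreated, 1.76 with BMP4 and 1.53 with noggin. The paralogues at position 9 did not share the difference on these arrays. With noggin the Hoxa9 probe set above the floor was lower by 0.0011 and the other by 0.08, Hoxb9 was equal at 2.86, and Hoxc9 was higher by 0.18, the largest difference above 0 of a Hox probe set with noggin.

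**Figure D3:**
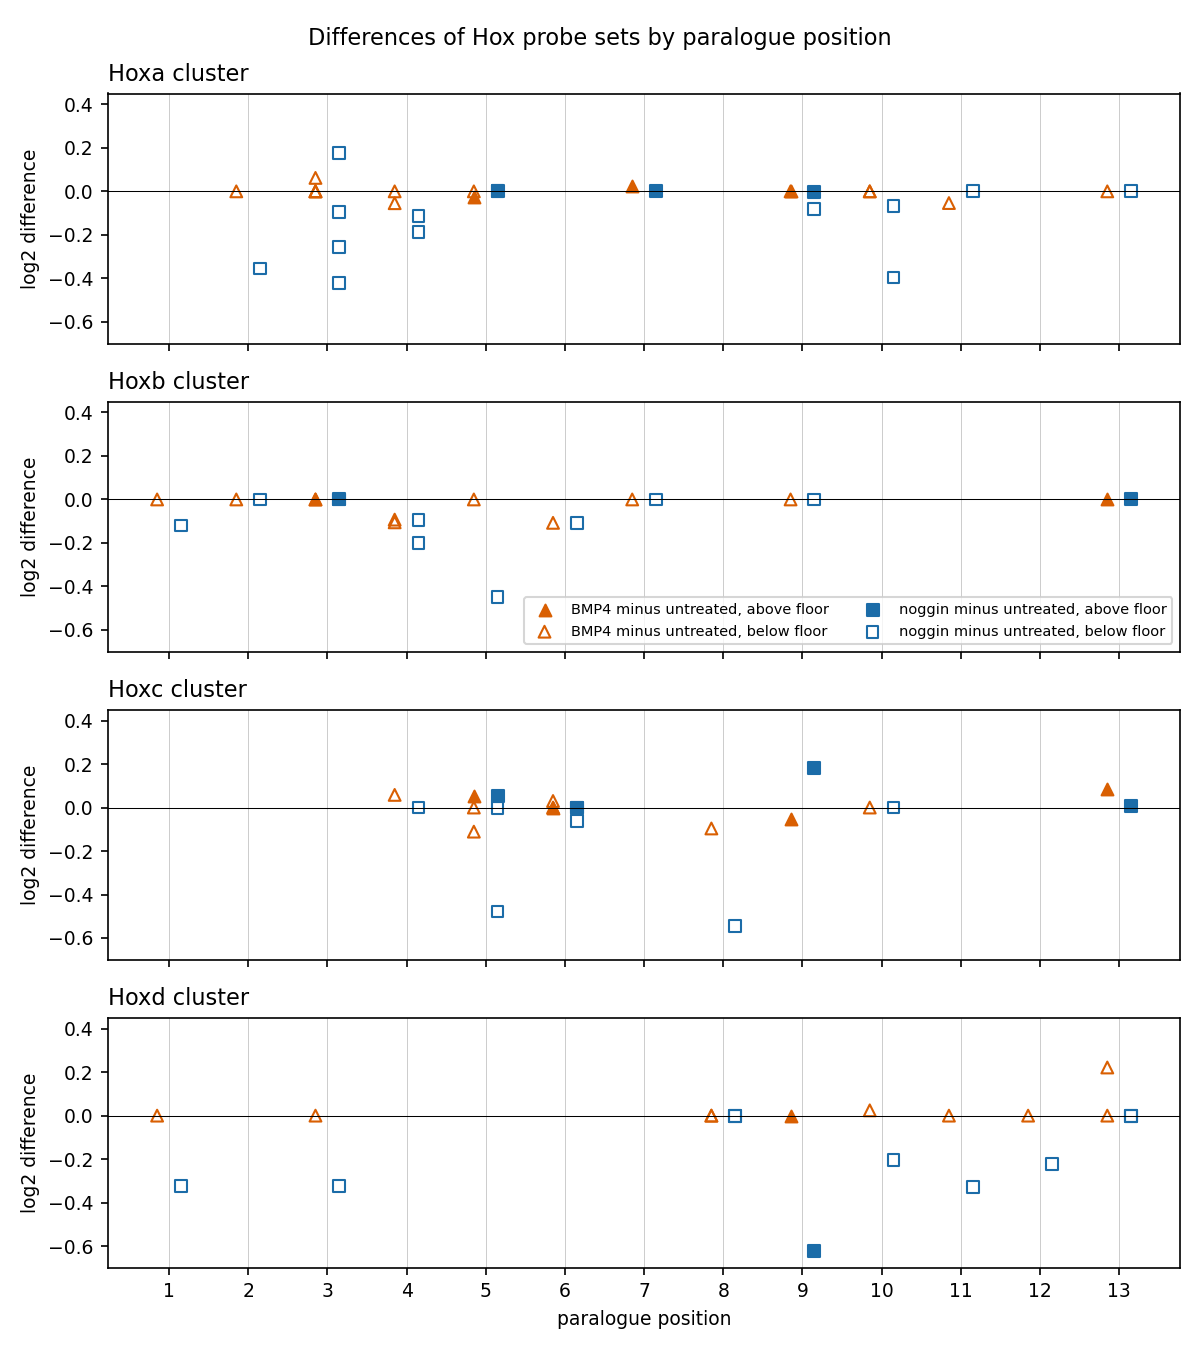
Log2 difference from the untreated array (y axis) of each Hox probe set by paralogue position (x axis), 1 panel a cluster, with BMP4 as triangles and noggin as squares; filled points are probe sets above the floor on all 3 arrays and open points are the others. The BMP4 points lie between −0.11 and 0.22, and the lowest noggin point is Hoxd9 at −0.62, between Hoxd8 at 0.00 and Hoxd10 at −0.21.

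The promoter windows of 3 members are shown for the sequence context of the probe sets described, from 250 bases before to 50 after the gene's start, taken from RefSeq (GRCm38.p6) and written 5′ to 3′ on the strand of the gene with CpG dinucleotides in capitals. Hoxd9 (chr2:74697513-74697812, plus strand) is the gene with the largest noggin difference, Hoxa9 (chr6:52227321-52227620, minus strand) its paralogue above the floor with nearly equal values, and Hoxd13 (chr2:74667975-74668274, plus strand) the gene with the largest BMP4 difference.
Hoxd9: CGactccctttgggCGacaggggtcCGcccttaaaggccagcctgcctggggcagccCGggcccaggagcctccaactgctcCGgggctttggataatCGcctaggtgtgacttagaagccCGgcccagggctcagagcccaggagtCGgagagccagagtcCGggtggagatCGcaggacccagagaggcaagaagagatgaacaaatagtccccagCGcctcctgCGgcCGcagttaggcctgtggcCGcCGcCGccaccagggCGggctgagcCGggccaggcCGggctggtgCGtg
Hoxa9: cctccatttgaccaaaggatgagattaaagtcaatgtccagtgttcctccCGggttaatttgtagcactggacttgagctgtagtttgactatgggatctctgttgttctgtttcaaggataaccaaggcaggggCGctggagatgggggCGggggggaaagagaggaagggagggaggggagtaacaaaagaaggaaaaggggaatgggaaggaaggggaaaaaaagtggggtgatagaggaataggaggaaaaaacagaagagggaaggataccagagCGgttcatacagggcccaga
Hoxd13: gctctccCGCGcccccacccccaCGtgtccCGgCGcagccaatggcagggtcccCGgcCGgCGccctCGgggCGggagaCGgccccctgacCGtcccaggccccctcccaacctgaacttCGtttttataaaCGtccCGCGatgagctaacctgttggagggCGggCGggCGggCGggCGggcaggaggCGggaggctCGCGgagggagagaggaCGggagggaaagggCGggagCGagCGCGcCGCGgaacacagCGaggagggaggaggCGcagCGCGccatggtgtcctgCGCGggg

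The Hoxd9 window held 20 CpG dinucleotides, the Hoxa9 window 4 and the Hoxd13 window 37. The RefSeq table had 24 windows of 22 Hox genes, 3 of which are not members, from 4 to 45 CpG dinucleotides with a median of 14.5, against a median of 7 over all 32851 windows. The ratio of observed to expected CpG had a median of 0.63 in the Hox windows and 0.38 in all windows, and exceeded 0.6 in 12 of 24 Hox windows, 50%, against 35.8% of all. A few letter patterns were searched on both strands. The palindromic SMAD element GTCTAGAC was in 0 of the 24 Hox windows and 0.213% of all windows. The pattern GGCGCC, a GC-rich SMAD element, was in 5 of 24 Hox windows, 20.8%, against 11.9% of all, and the 5 belonged to Hoxa10, Hoxd1, Hoxd3, Hoxd11 and Hoxd13. The pattern TATAAA of the TATA box was in 4 Hox windows, 16.7% against 13.6%, and CATAAA, a pattern bound by CDX factors, in 5, 20.8% against 11.9%. The Hoxd9 and Hoxa9 windows held none of the 4 patterns, and the Hoxd13 window held GGCGCC and TATAAA. A match is a description of these letters and not a binding site.

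The BMP4 and noggin arrays were then set against each other, which spans the range from added BMP4 to blocked BMP without the untreated array. By any amount, 27 of the 48 Hox probe sets were higher with BMP4 and 4 were lower, against 48.3% and 18.2% of all probe sets. The loess correction turned this balance too, to 39.6% higher and 60.4% lower, against 34.7% and 65.3% of all. At the limit of 0.32, 10 were higher and none lower, against 9.01% and 0.922%. This comparison shares the noggin array with the one before, and in it Hoxb5 and Hoxc8 differed by 0.45 each and the Hoxa3 probe set by 0.42. At 1.5-fold 1 was higher, Hoxd9 by 0.62, and none was lower, against 1.2% and 0.0843%. Of 2183 probe sets of like mean, 99.2% had a lower difference than Hoxd9. The median difference was 0.04 over the Hox probe sets and 0.00 over all. Hoxc9 was the lowest at −0.23, with 4.69% of 1919 probe sets of like mean as low or lower.

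By cluster, the median noggin difference was −0.21 for Hoxd, −0.08 for Hoxa, and 0.00 for Hoxb and Hoxc, against 0.00 over all probe sets and −0.05 over all those of low mean. The counts below stand against 48.3% lower, 16.2% higher and 7.51% lower past 0.32 over all probe sets, and 59.2%, 7.1% and 13.4% over those of low mean. In Hoxd, with 9 of 10 probe sets of low mean, 6 of 10 were lower and none was higher, with 4 of the 6 past 0.32. In Hoxa 10 of 16 were lower and 1 higher, in Hoxb 5 of 11 lower and none higher, and in Hoxc 4 of 11 lower and 3 higher. With BMP4 the median was 0.00 in each of the 4 clusters, and over all probe sets 26.1% were higher and 26.5% lower. In Hoxb 3 probe sets were lower and none higher, those of Hoxb4, by 0.09 and 0.11, and Hoxb6, by 0.11. In Hoxd 2 were higher, those of Hoxd10 and Hoxd13, and none lower. The clusters were not tested against each other.

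By paralogue position, the anterior genes of positions 1 to 4 had 11 of 16 probe sets lower with noggin and a median of −0.12. Of these 16, 15 were of low mean, where 59.2% of all probe sets were lower and the median was −0.05. The central positions 5 to 8, with 11 of 15 of low mean, had 6 lower and a median of 0.00, and the posterior positions 9 to 13, with 12 of 17 of low mean, had 8 lower and a median of 0.00. Over all probe sets 48.3% were lower and 35.5% exactly equal, and over those of low mean 59.2% and 33.7%. At position 13, with 5 probe sets of Hoxa13, Hoxb13, Hoxc13 and Hoxd13, 4 were exactly equal between noggin and untreated cells, and that of Hoxc13 was higher by 0.0074. At position 10, 3 of 4 were lower, and at position 7 the probe sets of Hoxa7 and Hoxb7 were equal. These single positions were picked after the values were seen and hold few probe sets. With BMP4 the median was 0.00 in the anterior, central and posterior positions.

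Probe sets of the same gene give a view of the technical spread, since they read 1 transcript or its isoforms in 1 RNA. Over the 26 probe sets of the 11 Hox genes with several, the within-gene SD of the noggin difference was 0.17, against 0.14 over 25762 probe sets of 9010 genes in all, and that of the BMP4 difference was 0.05 against 0.12. Most of these Hox probe sets were below the floor and those of all genes spanned every level, so the SDs are at unlike levels. With noggin the probe sets of Hoxa4, Hoxa9, Hoxa10 and Hoxb4 were all lower within each gene, those of Hoxa5, Hoxb3, Hoxd8 and Hoxd13 were all equal, and those of Hoxa3 and Hoxc5 went both ways. The 4 probe sets of Hoxa3 gave −0.42, −0.25, −0.09 and 0.18. The first and the last of these are paired with the same sequence record in the annotation, and they differed by 0.60. The first carries the array maker's suffix _s_at and the last the plain _at. Which other transcripts the probes of the first may bind was not analysed. The pair of Hoxb4 probe sets, also paired with 1 record, gave −0.09 and −0.20. The 3 probe sets of Hoxc5 gave −0.48, −0.0016 and 0.05, the last being the one above the floor.

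Exact equality was common among the Hox probe sets. On all 3 arrays 14 of the 48 had 1 value to 6 decimals, 29.2% against 26.1% of all probe sets. Different probe sets also shared values: on the untreated array 38 of the 48 had exactly the value of some other probe set on the array, and 71.6% of all probe sets did, or 81.3% of those with a mean at or below the floor. Hoxa9 and Hoxb3, for example, both measured 3.931280 on the untreated and the BMP4 array.

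Genes that act with or on the Hox clusters were described by the probe set of highest mean for each gene. Among the 11594 genes above the floor, 24.8% were higher and 35.6% lower by any amount with BMP4, and 26.8% and 36.1% with noggin. At 1.5-fold 0.224% were higher and 0.0518% lower with BMP4, and 0.00863% and 0.069% with noggin. No member above the floor of the Polycomb, trithorax, TALE, retinoic acid or flanking gene lists passed 1.5-fold in either comparison. In the list of BMP-SMAD targets, 7 of 11 did with BMP4, among them Msx2, a homeobox gene outside the clusters, at 1.54.

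The Polycomb repressors of the clusters were above the floor for all 27 genes matched, 11 of complex 2 and 16 of complex 1. In complex 2, Ezh2, the main histone methyltransferase, measured 9.18 on all 3 arrays and Eed, its partner, 10.84. Ezh1 was lower with BMP4 by 0.22 and Jarid2, an accessory subunit, by 0.17, and Suz12 was higher by 0.10. With noggin Suz12 was higher by 0.13 and Jarid2 by 0.08, and the list had 6 higher, none lower and a median of 0.01. In complex 1, Rnf2, the ubiquitin ligase, measured 9.71, 9.70 and 9.72. Phc1 was lower with BMP4 by 0.17 and higher with noggin by 0.18, Cbx6 was lower with BMP4 by 0.11, and Pcgf6 and Ring1 were higher with BMP4 by 0.16 and 0.14. Pcgf2 was higher with noggin by 0.14, and Cbx7 was lower by 0.01.

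Trithorax-type activators, which oppose Polycomb, were above the floor for 11 of 11 genes. With noggin 9 were higher and 1, Dpy30 at −0.03, was lower, with a median of 0.12 against 0.00 over all genes above the floor. Kdm6b, a demethylase of the Polycomb mark, measured 7.49 untreated, 7.39 with BMP4 and 7.82 with noggin, and Hcfc1 measured 9.26, 9.31 and 9.53. Kmt2a, the methyltransferase that maintains Hox expression in blood, measured 5.91, 5.77 and 6.13. With BMP4, 3 were higher, Kdm6a at 0.16 and Dpy30 at 0.08 the most, and 5 were lower, Kmt2a at −0.14 and Kmt2b at −0.11 the most, with a median of 0.00.

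Of the TALE homeodomain proteins, which bind DNA together with Hox proteins, 6 of 8 genes matched were above the floor. Pbx2 measured 7.77 on all 3 arrays. With BMP4 Meis1 was lower by 0.22 and Meis2 by 0.21, Meis3 was higher by 0.09, and the list had 4 lower, 1 higher and a median of −0.09. With noggin Pbx3 was lower by 0.26 and Meis1 by 0.21, Pknox1 was higher by 0.08 and Meis3 by 0.02, and the median was 0.00. The ParaHox genes, evolutionary sisters of the clusters, were all 6 below the floor, among them Cdx2 at 2.70, 2.67 and 2.53 on the untreated, BMP4 and noggin arrays, and Gsx1 at 2.94, 2.60 and 2.60. In the retinoic acid pathway, a main inducer of the clusters, 9 of 14 genes were above the floor. With BMP4 Rara was higher by 0.13 and Rxra by 0.01, and Crabp2 was lower by 0.17 and Aldh1a2 by 0.11. With noggin 6 were higher, Rdh10 at 0.12 and Rara at 0.10 the most, and 3 were lower, Crabp2 at −0.28 and Rxrb at −0.12 the most.

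Genes beside the clusters were above the floor for 15 of 16 matched, with Skap1 the exception. Evx1 and Evx2, homeobox genes next to Hoxa13 and Hoxd13, measured 3.45 and 4.23 on every array. Mtx2, on the far side of Hoxd1, measured 8.44, 8.50 and 8.44, and Lnpk, beyond Evx2, measured 7.09, 7.01 and 6.92. With BMP4 the largest differences were those of Hnrnpa1 at 0.13 and Nfe2l2 at 0.06 above 0 and Tax1bp1 at −0.13 and Ttll6 at −0.12 below. With noggin Tax1bp1 was higher by 0.14 and Ttll6 by 0.06, and Lnpk and Hnrnpa1 were lower by 0.17 and 0.16. The median of the flanking genes was 0.00 in both comparisons.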

How the data were processed

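RNA of R1 cells was measured on 1 Affymetrix array a condition. The deposited table of the authors holds 1 log2 value a probe set and array; the submitters' processing notes name RMA. This method corrects background, equalises array distributions and summarises probes by median polish, which can give exactly equal values. No build is named, and RMA's version is not given in the sources used here. Gene symbols came from the platform annotation. Values were used as deposited. From them differences, counts (limits of 0.32 and 0.58 in log2, the latter 1.5-fold, equality within 1e-06) and medians were computed in Python 3.11.15 with pandas 2.3.3; loess used statsmodels 0.14.6 with a span of 0.3. The functions were tested on simulated data. Members and gene lists were chosen with earlier results of these data known. Every gene above the floor was named, with Hox probe sets past 0.32 in any comparison, and of other lists those past 1.5-fold and mostly the 2 largest differences each way; other values were chosen after they were seen. Alternatives concerned the floor, unit, size limit, centring, loess and a pseudocount of 16. RefSeq windows of 300 bases served for promoters; no protein sequence was used here.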

Additional observations from a re-analysis of the deposited data

How the results depend on the processing

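Alternatives gave 100 values for the counts and shares of the 3 comparisons and for the number of Hox genes above the floor. Of these, 83 kept their size and 17 moved. A count had to stay within 1.5 times, and a share within the 95% binomial interval of the value as reported. That interval treats the 48 probe sets as independent and measures no replicate error. Part of the values could not move, so the 83 is no measure of robustness. Centring subtracted a median of 0.00 in all 3 comparisons, and a pseudocount cannot change the sign of a difference. A count of 0 at 1.5-fold had to stay 0 at 2-fold, with the pseudocount, and over any subset of members or mean of a gene. With the floor at the 60th percentile of all values 5 of the 33 Hox genes were above it, and at the 75th percentile 0. The count lower with noggin, 1 at 1.5-fold, was 10 at a limit of 0.32, 0 at 2-fold and 0 with a pseudocount of 16, as was the count higher with BMP4 than with noggin (10, 0 and 0). Among the 10 probe sets above the floor, 20% were lower and 30% higher with noggin. Of all probe sets with a mean above the floor, 37.4% were lower and 25.3% higher. With BMP4 against noggin, 40% of the 10 were higher and 20% lower, against 37% and 29.9% of all probe sets with a mean above the floor. The loess correction turns exact ties into small differences. With it 83.3% of the Hox probe sets were lower for BMP4 minus untreated, against 74.7% of all probe sets and 76.9% of those of low mean. For noggin minus untreated 31.2% were lower and 68.8% higher, against 34.7% and 65.3% of all. For BMP4 minus noggin 39.6% were higher and 60.4% lower, against 34.7% and 65.3% of all. The balance of higher and lower thus turned in both comparisons with the noggin array. Leaving out a replicate was not possible with 1 array a condition. A paired analysis was not possible for the same reason. Signal over background limits what can be read, since 38 of 48 members lay at or below the floor.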

Other observations

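Probe sets of the clusters outside the rule, because they carry several symbols or name an antisense RNA, were all below the floor of 3.44. The pair shared by Hoxd4 and Hoxd3 gave BMP4 differences of −0.01 and −0.34 and noggin differences of −0.23 and 0.05; the second measured 2.29 untreated, 1.95 with BMP4 and 2.34 with noggin. The probe set shared by Hoxb8 and Hoxb7 measured 2.04, 2.01 and 1.99. Of the antisense transcripts, Hoxb5os measured 3.21 on all 3 arrays, the Hoxa11os pair gave noggin differences of −0.12 and −0.42, and the Hoxd3os1 pair 0.00 and −0.18. The strand read by these probe sets was not analysed here.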
